A study of Mus musculus with 238 samples.

Results

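The genes described here are 9 genes that mark the epithelium of the choroid plexus: Ttr, Aqp1, Cldn2, Slc4a5, F5, Tmem72, Folr1, Otx2 and Clic6. They were taken by name, and each of the 9 has a row among the 21076 gene rows of the count table. RNA of 15 brain regions and of liver was sequenced in bulk from 16 mice of the C57BL/6JN strain, all aged 19 months. The 9 females were either dietary restricted (aDR, 5 mice, labelled DR in liver) or fed ad libitum (AL, 4 mice), and gave 131 brain and 9 liver libraries. The 7 males were injected behind the eye with plasma of young mice (YMP, 3 mice) or with PBS, a salt solution (4 mice), and gave 98 brain libraries. The mice carried no transgene or mutation that the labels name, and sex could not be separated from experiment. The levels of the 9 genes were followed through every region, and each treatment was then compared with its control, within regions and over the whole animal.

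The choroid plexus is a folded sheet of epithelium that hangs into the brain ventricles, grows around a core of stroma and leaky capillaries, and secretes cerebrospinal fluid. Its cells form a barrier between blood and fluid, move ions, bicarbonate and water towards the ventricle, and carry hormones and vitamins across. It lies against ependyma-lined ventricle walls, so that the SVZ (labelled so, the subventricular zone), the corpus callosum, the hippocampus and the caudate putamen are among its neighbours. Among the 9 genes, Ttr encodes transthyretin, the carrier of thyroxine and of retinol-binding protein. Aqp1 is the water channel of the apical membrane, Slc4a5 a sodium bicarbonate cotransporter, and Clic6 a member of the chloride intracellular channel family. Cldn2 is a pore-forming claudin of leaky tight junctions, Folr1 the folate receptor that moves folate into the fluid, and F5 coagulation factor V, a plasma protein made mainly by liver. Otx2 is a homeobox transcription factor needed for the plexus to form, and Tmem72 is a transmembrane protein.

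The upstream sequences of 4 of the genes are printed because these genes parted in liver, as described further on: F5, Cldn2 and Aqp1 were read there and Otx2 was not. The RefSeq promoter table (build GRCm38.p6) held entries for 6 of the 9 genes, and each line gives the 250 bases before the transcript start, 5′ to 3′ on the gene's own strand. Slc4a5 and Tmem72, which also had entries and a liver median of 0 CPM, are not printed, so Otx2 alone stands for genes not read in liver. F5 lies on the plus strand, with this window at chr1:164151585-164151834, Aqp1 on the plus strand at chr6:55336049-55336298, Cldn2 on the plus strand at chrX:139800558-139800807, and Otx2 on the minus strand at chr14:48667645-48667894 for the first of its 4 entries. Each of these 4 windows had 0 bases in annotated exons of its gene. The Otx2 window lies inside the annotated span of that gene (48657677 to 48673819), before an inner transcript start. Capitals mark the letters TATAAA, the TATA box.
F5: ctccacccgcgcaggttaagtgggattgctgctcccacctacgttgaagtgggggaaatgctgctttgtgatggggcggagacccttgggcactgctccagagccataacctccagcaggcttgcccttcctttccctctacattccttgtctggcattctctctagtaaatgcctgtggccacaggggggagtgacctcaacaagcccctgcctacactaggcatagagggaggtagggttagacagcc
Aqp1: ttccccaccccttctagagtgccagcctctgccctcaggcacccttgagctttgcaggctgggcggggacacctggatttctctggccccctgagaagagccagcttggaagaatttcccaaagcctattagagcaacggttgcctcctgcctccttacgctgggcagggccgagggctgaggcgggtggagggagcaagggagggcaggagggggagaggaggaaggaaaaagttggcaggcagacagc
Cldn2: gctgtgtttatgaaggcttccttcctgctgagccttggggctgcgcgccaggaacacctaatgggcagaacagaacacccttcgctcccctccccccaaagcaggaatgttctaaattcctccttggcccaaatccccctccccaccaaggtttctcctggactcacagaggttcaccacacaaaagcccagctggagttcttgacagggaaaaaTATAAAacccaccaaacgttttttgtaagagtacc
Otx2: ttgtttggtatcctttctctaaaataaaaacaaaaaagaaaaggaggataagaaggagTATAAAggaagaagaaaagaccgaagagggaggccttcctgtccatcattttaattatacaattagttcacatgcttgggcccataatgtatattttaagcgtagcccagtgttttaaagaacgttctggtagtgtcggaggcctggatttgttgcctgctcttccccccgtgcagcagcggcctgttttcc

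Short motifs were searched on both strands of these windows, and the matches found did not overlap each other. A match is a description of the letters and not a binding site. The TATA box letters TATAAA, or TTTATA on the other strand, were found in Cldn2, beginning 35 bases before the transcript start, and in the Otx2 window, beginning 192 bases before it. Of 32851 promoter windows of the same length, 12.4% held them. The letters TAATCC, which OTX proteins bind, were in 6.25% of all windows, GTTAAT, which HNF1 proteins bind, in 6.43%, and TGTTTAC, a forkhead site, in 3.17%. Each of these was found in 0 of the 4 printed windows. The third of the Otx2 entries, not printed, held TAATCC on the strand opposite the gene's, beginning 211 bases before that start. The F5 and Aqp1 windows held 0 matches to any of these motifs. G and C made up 57.2% and 62.0% of their bases, against 52.0% for Cldn2 and 42.0% for this Otx2 window. The windows of Slc4a5 and Tmem72, not printed, had 62.8% and 58.8%, with 103 and 155 of their bases in annotated exons. Otx2 entries 2, 3 and 4, not printed, had 49.2%, 48.4% and 53.6%, so the printed window was the lowest of that gene. The low share of this Otx2 window was thus not shared by these other genes not read in liver. The Slc4a5 window held TTTATA, and that of Tmem72 none of the motifs.

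The 229 brain and 9 liver libraries held between 0.606 M and 32.4 M counts (M, mega), and the 16 choroid plexus libraries between 5.05 M and 19.8 M. The tissue label was checked against markers, and the plexus libraries held much RNA of other cells. The summed level of 10 neuron genes was between 6277 and 11932 CPM there (counts per M of the library total), with a median of 9721 CPM, against medians of 14121 CPM in motor cortex and 6496 CPM in SVZ. Snap25, a synaptic vesicle fusion protein, had a median of 2983 CPM and Mbp, a myelin protein, of 5658 CPM. Ttr, among the most abundant transcripts of plexus epithelium, took between 0.0127% and 1.46% of the counts in these libraries. In bulk samples such as these, fewer epithelial cells and less RNA per cell cannot be told apart.

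Ttr was above 100 CPM in all 16 plexus libraries, but over a wide range. In AL mice it stood at 899, 609, 5763 and 8167 CPM (mice 63, 66, 68 and 69), and in aDR mice at 6783, 3145, 6660, 3795 and 783 CPM (mice 61, 62, 64, 65 and 67). In PBS mice it stood at 7411, 8536, 9625 and 9438 CPM (mice 72, 76, 80 and 84), and in YMP mice at 127, 14557 and 6328 CPM (mice 73, 77 and 81). The 4 PBS libraries were close together, while each of the other groups held at least 1 library under 1000 CPM. In the YMP library of mouse 73 the other 8 genes each lay between 0.523 CPM (Aqp1) and 4.97 CPM (Clic6), the lowest of the 16 libraries for all 8. The same library had the lowest summed level of 12 ependymal genes, 50.2 CPM, and the highest of the neuron genes, 11932 CPM, while the library of YMP mouse 77 had the highest ependymal and the lowest neuron sum, 232 and 6277 CPM. Gene lengths were taken as all annotated exons joined, 17177 bases for Tmem72 and 1186 for Ttr. The transcripts counted may be shorter, so the order of genes by this scale is uncertain. Per kilobase of annotated exon, the median plexus levels were 5475 CPM for Ttr, 36.3 for Clic6, 32.5 for Folr1, 15.1 for Aqp1 and 13.6 for Cldn2. They were 8.25 for Slc4a5, 6.72 for Otx2, 5.53 for F5 and 2.63 for Tmem72. The depth behind these values was between 8 and 893 counts for Aqp1 and between 1943 and 143891 counts for Ttr.

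**Figure D1:**
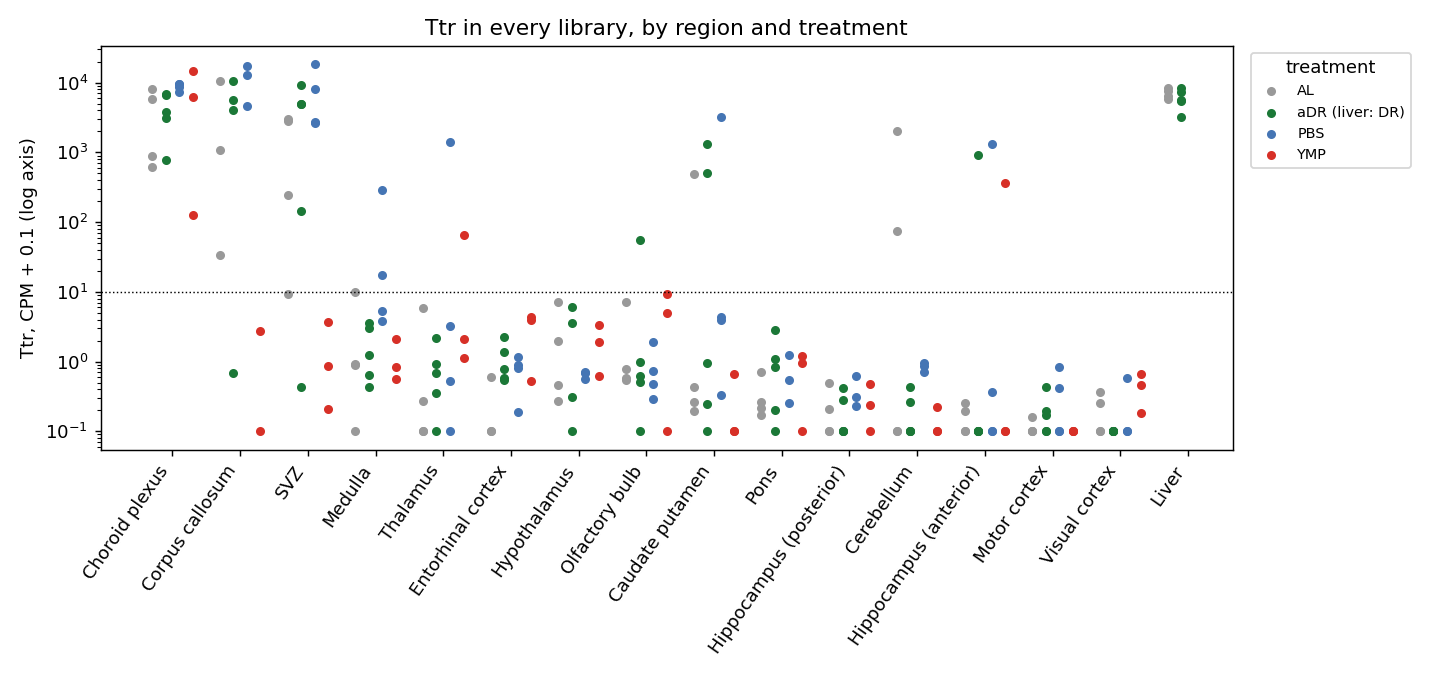
Ttr level of each brain and liver library, as CPM + 0.1 on a log axis, by region and treatment (grey AL, green aDR or liver DR, blue PBS, red YMP); the dotted line marks 10 CPM. All 16 choroid plexus and 9 liver libraries lie above 100 CPM, the SVZ and corpus callosum libraries are split, and the cortical and posterior hippocampal libraries lie below the line.

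Ttr (GRCm38 chromosome 18, 20665280 to 20674321, plus strand) had a median of 6494 CPM in choroid plexus, 4380 CPM in corpus callosum and 2658 CPM in SVZ. The next brain region, medulla, had a median of 1.57 CPM. The ranges of the first 3 regions overlapped, so their order was not separated by the spread between libraries. The corpus callosum libraries were at 34.2, 10495 and 1066 CPM in AL mice 63, 66 and 69, and at 10617, 5602, 4076 and 0.582 CPM in aDR mice 61, 62, 65 and 67. They were at 17422, 12814 and 4684 CPM in PBS mice 76, 80 and 84, and at 0 and 2.61 CPM in YMP mice 77 and 81. Of the 12 corpus callosum libraries, 8 thus held at least 1000 CPM and 4 held 34.2 CPM or less. The SVZ libraries were also far apart, at 9.28, 2828, 248 and 2989 CPM in AL mice 63, 66, 68 and 69, and at 9280, 4940, 0.332, 4992 and 145 CPM in aDR mice 61, 62, 64, 65 and 67. They were at 18358, 8095, 2602 and 2714 CPM in PBS mice 72, 76, 80 and 84, and at 0.759, 0.110 and 3.56 CPM in YMP mice 73, 77 and 81.

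The highest summed level of the 9 genes in any library was not in choroid plexus but 19502 CPM in the SVZ of PBS mouse 72. Next came 18446 CPM in the corpus callosum of PBS mouse 76 and 15199 CPM in the choroid plexus of YMP mouse 77. Mouse 77 held the most Ttr of all plexus libraries, 0 counts in its corpus callosum and 1 count in its SVZ. Mouse 61 held it in all 3 sites, at 6783, 10617 and 9280 CPM.

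**Figure D2:**
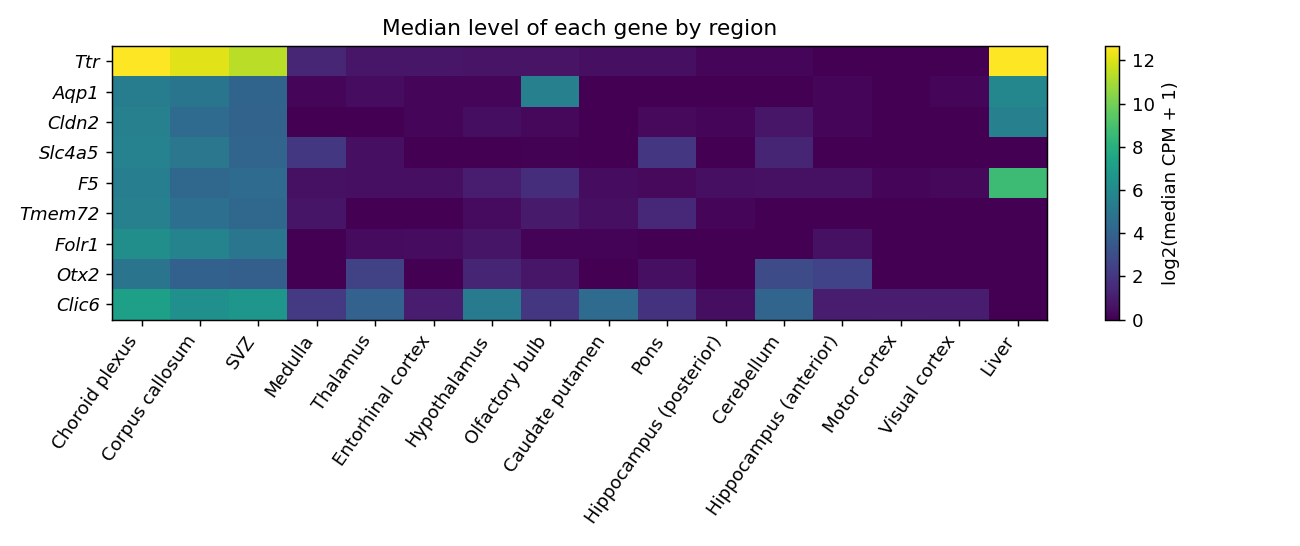
Median level of each of the 9 genes in 15 brain regions and liver, coloured by log2(median CPM + 1), with regions ordered by their Ttr median and liver last. Choroid plexus, corpus callosum and SVZ stand out for all 9 genes, while Aqp1 in olfactory bulb, Clic6 in hypothalamus and 4 genes in liver are high without the others.

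Of the 185 libraries of the other 12 brain regions, 14 held Ttr at 10 CPM or more, 10 at 100 CPM or more and 5 at 1000 CPM or more. Those 5 were the caudate putamen of PBS mouse 76 (3176 CPM) and of aDR mouse 62 (1298 CPM), the cerebellum of AL mouse 68 (2007 CPM), the thalamus of PBS mouse 72 (1400 CPM) and the anterior hippocampus of PBS mouse 76 (1336 CPM). In the library of the caudate putamen with 3176 CPM of Ttr, all 8 other genes were also at their highest for that region, from 14.1 CPM for Aqp1 to 93.6 CPM for Clic6. Entorhinal, motor and visual cortex, posterior hippocampus, hypothalamus and pons held 0 libraries with 10 CPM of Ttr. Over the 12 regions Ttr had a median of 0.331 CPM, and 57 of the 185 libraries had 0 counts of it. Outside the plexus, libraries with at least 100 CPM of Ttr numbered 7 of 54 in AL, 10 of 68 in aDR, 11 of 50 in PBS and 1 of 41 in YMP mice; these counts were not tested, since libraries of 1 mouse are not independent.

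The other genes were next set against Ttr within each library, in the libraries with at least 1000 Ttr counts. Folr1 had a median of 11.1 counts per 1000 counts of Ttr in the 16 choroid plexus libraries (range 9.32 to 19.6). It had 10.8 in 8 corpus callosum libraries (9.64 to 13.8), 12.6 in 11 SVZ libraries (range up to 27.1) and 12.6 in 10 libraries of the other regions (7.50 to 15.5). Aqp1 was at 5.66, 5.71, 6.55 and 5.73 per 1000 in the same 4 sets. Tmem72 was at 6.92, 5.75, 6.57 and 7.13, and Cldn2 at 6.80, 5.13, 6.05 and 7.01. For each of these 4 genes, and likewise for F5, Clic6, Otx2 and Slc4a5, the medians of the other sets lay within the range of the plexus libraries. F5 was at 6.33, 4.02, 7.59 and 6.65, and Clic6 at 22.1, 19.2, 35.5 and 31.4. Clic6 and Otx2 reached 314 and 37.4 per 1000 in the SVZ library of aDR mouse 67, which held 1070 Ttr counts, the fewest of the 11. Slc4a5 reached 36.7 per 1000 in 1 library of the 12 other regions.

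**Figure D3:**
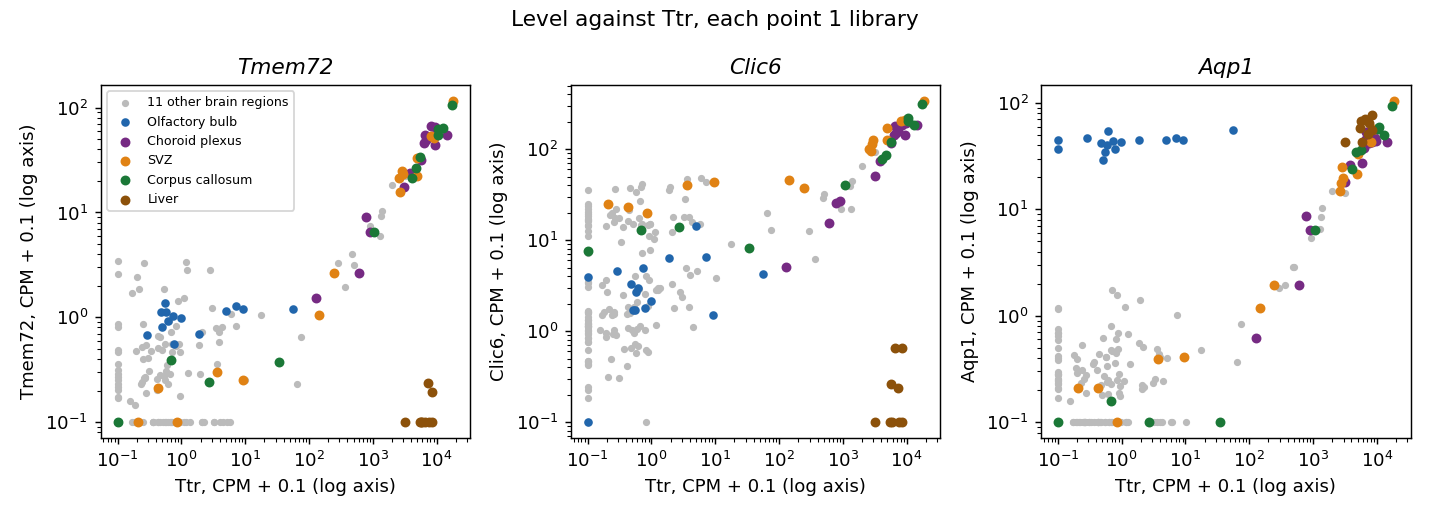
Level of Tmem72, Clic6 and Aqp1 against that of Ttr in each library, both as CPM + 0.1 on log axes, with choroid plexus, SVZ, corpus callosum, olfactory bulb and liver coloured and the 11 other brain regions in grey. Most brain libraries above 100 CPM of Ttr lie along 1 band for each gene, with the SVZ libraries of aDR mouse 67 and AL mouse 68 above it for Clic6, at 314 and 150 counts per 1000 of Ttr. Below that level Clic6 spreads up to 48.3 CPM, Aqp1 is at 29.3 to 56.1 CPM in olfactory bulb at any Ttr level, and liver lies below the band for Tmem72 and Clic6.

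Some of the 9 genes were read where Ttr had a median under 1 CPM. Aqp1 (chromosome 6, 55336432 to 55348555, plus strand) had a median of 44.4 CPM in olfactory bulb (29.3 to 56.1 over 16 libraries), against 39.7 CPM in choroid plexus; the ranges overlapped. The group medians in the bulb were 38.6 CPM in AL, 42.5 in aDR, 44.6 in PBS and 44.8 in YMP mice. In each of the 11 other regions outside plexus, corpus callosum and SVZ the Aqp1 median was under 1 CPM. Clic6 (chromosome 16, 92485736 to 92541243, plus strand) had medians of 37.0 CPM in hypothalamus, 20.9 in caudate putamen, 16.2 in cerebellum and 14.8 in thalamus, against 142 CPM in choroid plexus and 98.7 in SVZ.

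Otx2 (chromosome 14, 48657677 to 48673819, minus strand) had medians of 6.37 CPM in cerebellum, 4.87 in anterior hippocampus and 4.50 in thalamus, against 28.4 in choroid plexus. It had 0 counts in all 16 motor and all 15 visual cortex libraries. A non-coding gene on the other strand, Otx2os1, overlaps 3.65% of the Otx2 exon bases, and the unstranded counts cannot part the overlap. Slc4a5 (chromosome 6, 83219828 to 83304945, plus strand) had medians of 3.14 CPM in medulla, 3.00 in pons and 1.49 in cerebellum, against 47.9 in choroid plexus. Tmem72 (chromosome 6, 116679063 to 116716913, minus strand) reached a median of 1.76 CPM in pons and F5 (chromosome 1, 164151838 to 164220277, plus strand) one of 2.15 CPM in olfactory bulb. Cldn2 (chromosome X, 139800828 to 139811386, plus strand) and Folr1 (chromosome 7, 101858331 to 101870788, minus strand) had medians under 1 CPM in each of the 12 regions outside plexus, corpus callosum and SVZ. In those 3 regions the Folr1 medians were 74.7, 49.3 and 30.3 CPM.

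Liver held 4 of the 9 genes in all 9 libraries, and the other 5 at under 1 CPM. Ttr had a median of 6488 CPM there (3179 to 8498 over 9 libraries), a range that overlapped the plexus range. F5 had 407 CPM (313 to 559), and its liver and plexus ranges did not overlap. Aqp1 had 57.7 CPM and Cldn2 44.8 CPM. Otx2 had 0 counts in all 9 liver libraries, which allows up to 3 counts in each, and Slc4a5, Tmem72, Folr1 and Clic6 had at most 5 counts in any. Per 1000 counts of Ttr, liver held 62.6 of F5 and 0 of Folr1 as medians.

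Across the 213 brain libraries outside the plexus, the genes most alike to the 9 were sought among 11860 genes with a median of at least 5 CPM in choroid plexus. As a description, the Pearson r of log2(CPM + 1) with the mean of the 9 genes was 0.98 for Steap1, 0.96 for Kcne2, 0.95 for Prr32, 0.94 for Slc16a8, 0.94 for Sult1c2, 0.92 for Wdr86, 0.91 for Trpv4 and 0.91 for Krt18. Kcne2 is a potassium channel subunit of the plexus apical membrane and Trpv4 a cation channel found there. Points of such a correlation share animals and library depth, so it is given without a test. Each of the 9 genes also had a nearest gene outside the set: Kcne2 for Ttr (r 0.95), Cldn2 (0.97) and Tmem72 (0.95), Steap1 for F5 (0.95) and Folr1 (0.96), Slc38a3 for Aqp1 (0.85), Cox8b for Slc4a5 (0.93), Col9a3 for Otx2 (0.87) and Dnaic2 for Clic6 (0.83). Within the set, Ttr was most alike to Folr1 (r 0.93) and least to Aqp1 (r 0.66), Slc4a5 was most alike to Tmem72 (r 0.93), and Aqp1 and Clic6 were the least alike pair (r 0.44).

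Whether dietary restriction moved these genes was examined first in choroid plexus, with 5 aDR and 4 AL libraries. Of 14136 genes tested by edgeR's quasi-likelihood test, 1 was called at an adjusted p under 0.05 (0.00707%), and it was none of the 9. At an unadjusted p under 0.05 there were 388 genes, and DESeq2 called 10, none of them among the 9. Mean Ttr was 4217 ± 2472 CPM (SD, n = 5, TMM-scaled, as are all means below) under aDR. Under AL it was 3822 ± 3659 CPM (SD, n = 4), which gave a log2 difference of 0.14 (SE 0.78). All 9 genes had a positive log2 change, from 0.07 for Otx2 to 0.46 for Aqp1, with SEs between 0.69 and 0.78, a median of 0.14 against 0.00177 over all genes, and edgeR adjusted p of 0.9995 throughout. The groups overlapped for every gene, and the direction rested on single libraries: leaving out AL mouse 63 or AL mouse 66 turned the sign of 8 of the 9, leaving out aDR mouse 64 that of 7 and aDR mouse 61 that of 6. Over these fits the log2 change of Ttr ran from -0.22 to 0.80.

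An alternative chosen after the data were seen took the summed level of 5 other plexus genes (Kcne2, Sostdc1, Steap1, Calml4 and Wdr86) as a covariate, so that each gene was set against other plexus genes of its own library. The SE then fell to between 0.080 and 0.19. Aqp1 was higher in aDR by a log2 value of 0.59 (SE 0.14, edgeR adjusted p 0.392) and Slc4a5 by 0.37 (SE 0.096, edgeR adjusted p 0.419), and neither passed. Among lists of related genes in the plexus, 0 of 23 tested genes of the list of other plexus epithelium genes and 0 of 23 of ion and water transport were called for diet. The 3 list genes with the smallest p were Kdr (log2 change -0.64, edgeR adjusted p 0.704), Pecam1 (-0.46) and Cldn5 (-0.57), all made by endothelium. Of 8 endothelial genes 0 were called and 7 had a negative change, with summed levels of 186 to 222 CPM in AL and 166 to 183 CPM in aDR plexus libraries. The part of endothelium in the values of the 9 genes was not tested.

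In corpus callosum, with 4 aDR and 3 AL libraries, 3 of 13934 genes were called for diet (0.0215%; 366 at an unadjusted p under 0.05; 9 by DESeq2) and none of the 9 was among them. Their log2 changes ran from 0.09 for F5 (SE 1.13) to 0.50 for Aqp1 (SE 1.35), with overlapping groups and an edgeR adjusted p of 1. In SVZ, with 5 against 4, 3 of 14159 were called (0.0212%; 644 at an unadjusted p under 0.05; 12 by DESeq2), again none of the 9. The SVZ changes were positive for all 9 genes, from 0.58 for Clic6 to 1.40 for Ttr (SE 1.73), with overlapping groups and edgeR adjusted p between 0.981 and 0.990. Of the 23 other plexus epithelium genes 0 were called in SVZ and 22 had a positive change (median 0.77). Of 10 stromal genes 0 were called and 8 were positive, with sums of 326 to 765 CPM in AL and 423 to 1751 CPM in aDR mice. The 3 tested blood genes were all positive (median 2.63) and uncalled, with sums over the 7 of the list of 2.15 to 8.19 CPM in AL and 2.03 to 57.7 CPM in aDR mice. The part of these cells was not tested. In the other 12 brain regions 24 tests could be made on the 9 genes, since the rest fell under the filter on low counts, and 0 were called, against 101 of 163464 tests over all genes (0.0618%).

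In liver, where diet was also compared, 26 of 11815 genes were called (0.22%), 4 of the 9 genes could be tested and 0 were called. Mean F5 was 462 ± 99.2 CPM (SD, n = 5) under DR. Under AL it was 357 ± 31.8 CPM (SD, n = 4), and the log2 difference of 0.38 (SE 0.18) had an edgeR adjusted p of 0.548. Its 5 DR values were 407, 468, 449, 376 and 559 CPM of the plain total and its 4 AL values 360, 421, 365 and 313 CPM, so that the groups overlapped. Mean Cldn2 was 35.8 ± 17.3 CPM (SD, n = 5) under DR. Under AL it was 67.9 ± 22.9 CPM (SD, n = 4), and the log2 difference of -0.92 (SE 0.36) had an edgeR adjusted p of 0.438. Ttr and Aqp1 had log2 changes of -0.18 (SE 0.24) and -0.16 (SE 0.18). Of 17 tested coagulation genes 0 were called, 7 with a positive change, and of 11 hepatocyte genes 0 were called, 9 with a positive change. The 3 list genes with the smallest p in liver were Hbb-bt, a haemoglobin chain (log2 change -1.34, edgeR adjusted p 0.0758), Igfbp2, a growth factor binding protein (1.05, 0.0967), and Slc25a32, a mitochondrial folate carrier (0.90, 0.111).

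The plasma comparison asked whether injected plasma of young mice changed the same genes. In choroid plexus, with 3 YMP and 4 PBS libraries, 0 of 14216 genes were called by edgeR (0%), 506 had an unadjusted p under 0.05 and DESeq2 called 4, none of them among the 9. All 9 log2 changes were negative, from -0.95 for F5 (SE 0.88) to -0.18 for Folr1 (SE 0.93), with an edgeR adjusted p of 0.9997 each. Without the library of YMP mouse 73, Ttr, Cldn2, Folr1 and Otx2 had positive log2 changes of 0.28, 0.03, 0.39 and 0.20. Of the 23 other plexus epithelium genes 0 were called and all 23 had a negative change, with a median of -0.42. The 3 list genes with the smallest p were Igfbp5 (-0.46) and Col3a1 (-0.71), both of stromal cells, and Rbp4, the retinol-binding protein (0.98), each with an edgeR adjusted p of 0.9997. F5 was the 1 gene among the 9 whose groups were apart, while 3.05% of tested genes had every YMP library below every PBS library. F5 was at 55.8, 45.8, 49.2 and 69.7 CPM in PBS mice 72, 76, 80 and 84 and at 0.915, 41.3 and 43.5 CPM in YMP mice 73, 77 and 81.

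**Figure D4:**
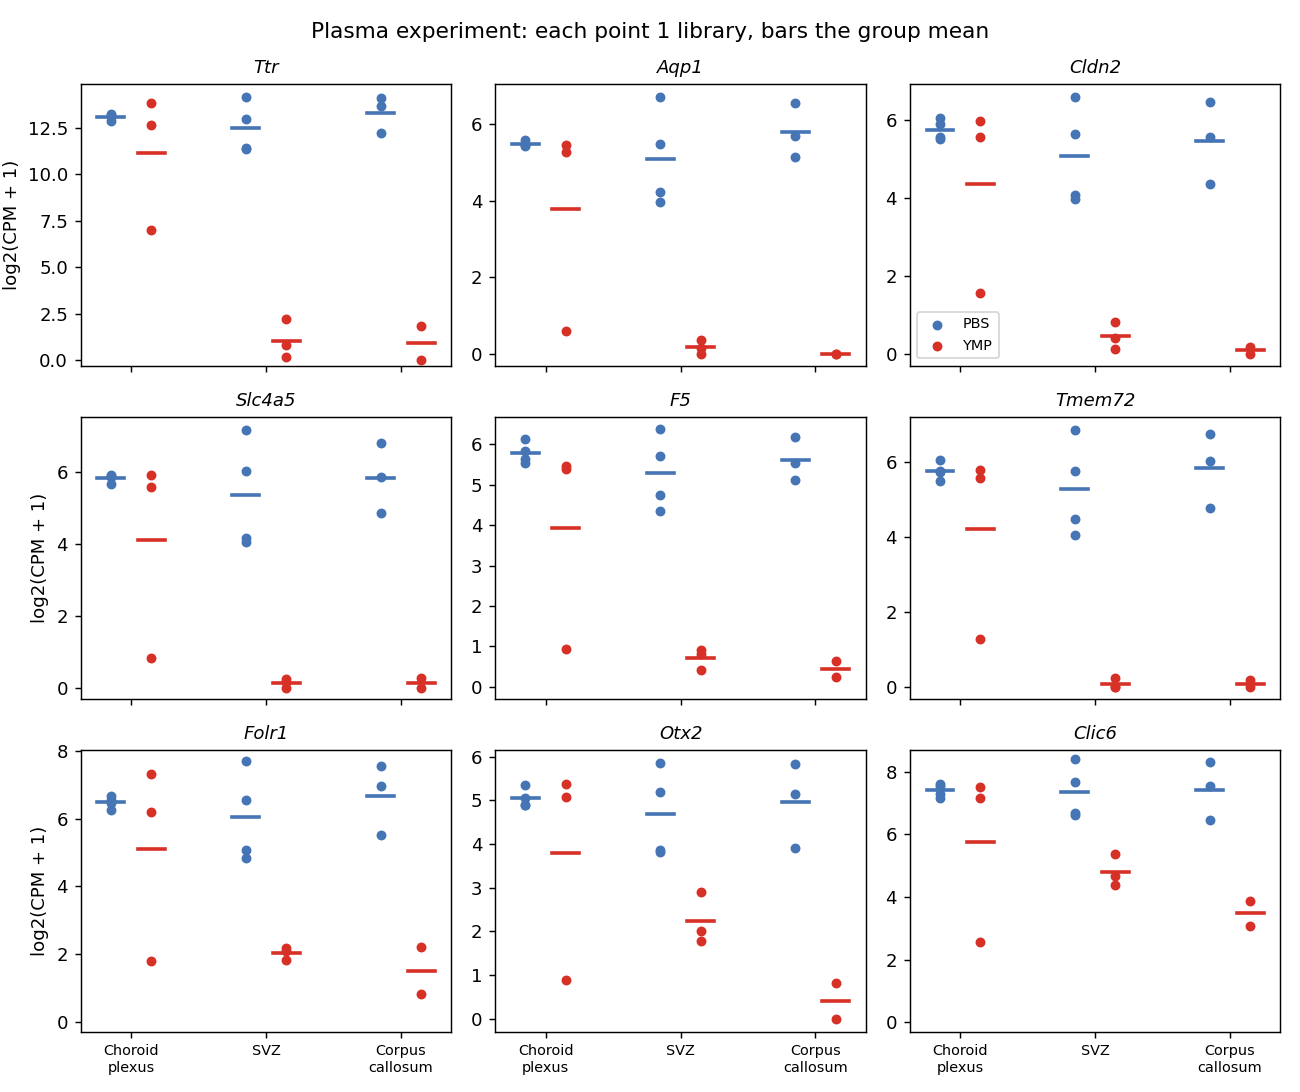
Level of each gene, as log2(CPM + 1), in PBS (blue) and YMP (red) libraries of choroid plexus, SVZ and corpus callosum; each point is 1 library and the bar is the group mean, over 4 and 3, 4 and 3, and 3 and 2 libraries. In SVZ and corpus callosum every YMP point lies below every PBS point for all 9 genes, while in choroid plexus 1 YMP library is low and the other 2 lie near the PBS libraries.

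In corpus callosum the differences were larger, a result known when the genes were chosen. In corpus callosum, with 2 YMP and 3 PBS libraries, 25 of 13562 genes were called (0.184%), and 6 of the 9 were among them, all lower: Ttr, F5, Aqp1, Slc4a5, Tmem72 and Cldn2. Mean Ttr was 1.27 ± 1.80 CPM (SD, n = 2) after plasma. After PBS it was 11622 ± 6402 CPM (SD, n = 3), with 37 counts over the YMP libraries against 232216 over the PBS libraries. The pooled PBS level was 7019.5 times the YMP level (exact 95% interval 5092.5 to 9969.8, counting error only; edgeR adjusted p 0.0204 for the difference between groups). Aqp1 had 0 counts in both YMP libraries and 1174 over the PBS libraries (edgeR adjusted p 0.0283). The exact 95% interval of its pooled ratio began at 355-fold, counting error only. Taking 3 counts over the YMP group as the floor gave 438-fold. F5 fell by 6.78 on the log2 scale (SE 0.52, edgeR adjusted p 0.0204). Folr1, Otx2 and Clic6 had log2 changes of -5.53, -6.01 and -4.15 and each missed the threshold with an edgeR adjusted p of 0.0516. All 9 were called by DESeq2 and by edgeR without the filter on low counts, and 7 by edgeR with DESeq2's size factors.

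Every YMP library lay below every PBS library for all 9 genes in corpus callosum, where 12.6% of tested genes did so, and in SVZ, where 6.89% did. The 9 genes largely rose and fell together across libraries and were chosen with the corpus callosum difference known. They are thus not 9 separate results to set against these shares. Lists of other genes were next set beside the corpus callosum result. Of the 23 tested genes of the list of other plexus epithelium genes, 11 were called and all were lower, among them Kl (log2 change -8.76), Htr2c (-1.85) and Prlr (-6.21), chosen for their small p after their values were seen. Kl is the co-receptor klotho, Htr2c a serotonin receptor and Prlr the prolactin receptor. Of 23 genes of ion and water transport, 2 were called, both lower and both also in the list before: Kcne2 (-9.32) and Kcnj13 (-8.21), an inward rectifier potassium channel, also named after their values were seen. Of 12 ependymal genes 0 were called, with a median log2 change of -0.70 and a summed level of 92.1 to 296 CPM in PBS and 70.0 to 183 CPM in YMP mice. Of 8 oligodendrocyte genes 0 were called, with a median of 0.45 and summed levels of 21303 to 24928 CPM against 32249 to 32994 CPM. Astrocyte sums were 3455 to 3833 CPM in PBS and 4130 to 4210 CPM in YMP mice. Microglia and macrophage sums were 627 to 732 and 843 to 893 CPM, while stromal and endothelial sums overlapped between the groups. The 10 neuron genes summed to 5434.5 to 7099 CPM in PBS and 5650 to 6511 CPM in YMP mice. The part of these cells in the result was not tested.

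The calls in corpus callosum rested on each of several mice. Without YMP mouse 77, YMP mouse 81 or PBS mouse 80, 0 of the 9 genes were called, while without PBS mouse 76 or 84 all 9 were. With only 1 YMP library left, that library is assumed to vary like the others.

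In SVZ, with 3 YMP and 4 PBS libraries, edgeR called 0 of 14120 genes (0%), with 1910 at an unadjusted p under 0.05, while DESeq2 called 496 genes with all 9 among them. Mean Ttr was 1.44 ± 1.77 CPM (SD, n = 3) after plasma. After PBS it was 8051 ± 7620 CPM (SD, n = 4), and the log2 difference of -12.28 (SE 1.39) had an edgeR adjusted p of 0.0519. The YMP libraries held 3, 1 and 36 counts of it. For Aqp1 the log2 difference was -8.04 (SE 1.21, edgeR adjusted p 0.0688), and Otx2 and Clic6 had -2.97 (SE 0.66) and -2.75 (SE 0.53). The YMP libraries still held 12, 22 and 65 counts of Otx2, 78, 224 and 407 of Clic6, and 13, 32 and 26 of Folr1. Which cells these came from was not tested. The 12 ependymal genes had a median log2 change of -0.29, with summed levels of 281 to 397 CPM in PBS and 286 to 327 CPM in YMP mice, which overlapped. The 10 tested stromal genes all had a negative change, with a median of -1.01, 0 called, and sums of 376 to 1148 CPM against 244 to 430 CPM. The part of stromal cells was not tested. Without PBS mouse 72, whose library held the most Ttr of all, 8 of the 9 genes were called.

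In the other 12 regions, 24 tests of the 9 genes could be made for plasma and 0 were called, against 1 of 163602 tests over all genes (0.000611%). The closest was Ttr in olfactory bulb, with a log2 difference of 3.35 (SE 0.52, edgeR adjusted p 0.0771), although the groups overlapped. Without the filter on low counts this difference was called (edgeR adjusted p 0.00178), on 89 counts of Ttr over the YMP and 20 over the PBS libraries. In medulla Ttr and Slc4a5 had log2 changes of -6.22 (SE 1.84, edgeR adjusted p 0.447) and -1.54 (SE 0.54, edgeR adjusted p 0.467), and there the groups did not overlap, as for 4.58% of genes tested in medulla with every YMP library below every PBS library. The size of the Ttr change rested mainly on 1 library. PBS mouse 84 held 289 CPM of Ttr and 10.6 of Slc4a5, PBS mouse 80 held 17.5 and 3.675 CPM, and the other PBS libraries held under 10 CPM of Ttr.

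Each mouse was next given 1 value per gene over its libraries of the 14 brain regions outside the plexus, a log2 CPM fitted with region and mouse as terms. Not every mouse had a library of every region. PBS mouse 72 and YMP mouse 73 had none of corpus callosum, so their values rest on other regions, joined by the fit. For diet, limma called 197 of 15568 genes (1.27%) and none of the 9, whose log2 changes ran from -0.18 for F5 (SE 0.22) to 0.22 for Folr1 (SE 0.29). The groups overlapped for all 9, while 8.13% of genes had groups that did not. For plasma, limma called 0 of 15730 genes (0%), 0.292 was the smallest adjusted p, and 1074 genes were under 0.05 before adjustment. The mouse values of Ttr were 2.41, 3.79, 1.80 and 1.37 in PBS mice 72, 76, 80 and 84 and -0.34, 0.56 and -0.14 in YMP mice 73, 77 and 81. All YMP mice lay below all PBS mice for 8 of the 9 genes, Clic6 being the exception. Over all genes, 8.63% had groups that did not overlap, with the YMP mice either lower or higher. The share with YMP mice lower was not counted apart, and the 9 genes largely vary together, so they are not separate results. The log2 changes ran from -2.31 for Ttr (SE 0.51, limma adjusted p 0.424) to -0.67 for Clic6 (SE 0.26, limma adjusted p 0.694).

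Libraries of the same mouse share its number, and a fit over all brain libraries outside the plexus took the mouse as a replicate block. There limma called 231 genes for plasma, with 8 of the 9 (Aqp1 excepted) among them, and 1343 for diet, with none of the 9. Treatment differed only between mice, while this fit took libraries as units, with a correlation within mice shared by all genes. Its counts are thus not those of a test on mice. Over the 12 regions left without corpus callosum and SVZ, the log2 change of Ttr was -0.72 (SE 0.59) and that of Aqp1 -0.35 (SE 0.17), with a limma adjusted p of 0.947 for each.

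Whether the plasma difference itself varied between the 15 brain regions was tested in edgeR, with an F test over all terms of region crossed with treatment. The 9 genes were chosen with the corpus callosum difference known. Outside plexus, corpus callosum and SVZ, the medians of Ttr and Aqp1 over libraries were 0.331 and 0.133 CPM. An unequal difference of these genes was thus no independent result, and the main fit took libraries of the same mouse as independent. Of 15768 genes tested, 124 were called (0.786%), among them Aqp1 (edgeR adjusted p 0.0373) and Ttr (edgeR adjusted p 0.0477). Tmem72 was next, at 0.0571. Without the choroid plexus libraries Aqp1 and Clic6 (edgeR adjusted p 0.0368) were called and Ttr was not (0.0774). With a replicate block for the mouse the test called 147, with Aqp1, Tmem72 and Cldn2 among them, and Ttr had an edgeR adjusted p of 0.0610. Without the corpus callosum libraries 10 genes were called and none of the 9, with an edgeR adjusted p of 0.272 for Ttr and 0.459 for Aqp1. None of the 9 was called either without YMP mouse 73, 77 or 81 or without PBS mouse 80, while 5 were called without PBS mouse 76.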

How the data were processed

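Bulk RNA of 229 brain and 9 liver libraries was analysed, made with RNeasy columns, Smart-Seq2 and Nextera XT without strand, per the labels' protocols. The values were raw read counts per gene as deposited by the authors, 21076 rows, of which 537 had no count. The submitters' processing notes name Trim Galore 0.3.7, STAR 2.5.3a, DESeq2 and build GRCm38; the counting program and annotation are not given in the sources used here. Levels are CPM of the library total, computed here from the deposited counts.

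Each region was fitted alone with edgeR 4.0.16 (quasi-likelihood, R 4.3.3), taking the treated and control libraries of the same experiment. Before the fit came filterByExpr (minimum count 10, minimum total 15) and TMM. Benjamini-Hochberg adjustment was over all genes tested, with a threshold of 0.05. The SE given with an edgeR log2 difference is its absolute value divided by the square root of the F statistic. It was worked back from the test and is not a fitted standard error. At few counts it is a poor guide to precision. DESeq2 1.42.0 was an alternative. For the mouse values, TMM-scaled log2 CPM (prior count 2) was fitted on region and mouse, and the mouse terms were compared with limma 3.58.1. Other alternatives were the scaling, the filter, the mouse as a block, and leaving out each mouse or region. The covariate of 5 plexus genes was chosen after the data were seen. The scripts were tested on simulated data.

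The 9 genes and the 18 other gene lists were chosen with earlier results of these data known. One listed plexus gene had no row. All 9 genes are named throughout, the 3 list genes with the smallest p in plexus and liver, and the 8 genes most alike. The labels name separate mice, and the mouse number pairs regions, not treatments; deviations from group means correlated at 0.04 (diet) and 0.0717 (plasma) within mice, and at -0.0049 and -0.012 between mice. Among 357 replicate pairs, none agreed within sampling noise (lowest chi-square per degree of freedom 1.29). PCR reads carried no molecular identifiers, so count intervals (exact, 95%) and floors (3 counts) cover counting error only. Positions are from GENCODE for GRCm38. The labels name no batch.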

Additional observations from a re-analysis of the deposited data

Results flagged for a closer look

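Dixon's test for a value apart was run on 39 groups of 4 or 5 mice (37 of brain regions and 2 of liver). The YMP groups, of 3 libraries or fewer, were too small for it and could not be flagged. In 6 of the 39 groups, all 6 in brain, 1 library stood apart in its mean log2(CPM + 1) over the 9 genes, each time as the highest. At 1 in 20, about 1.95 of 39 would stand apart if values were normal and groups independent, but groups shared mice. In caudate putamen, AL mouse 69 was at 3.34 (others 0.56 to 0.75) and PBS mouse 76 at 5.53 (others 0.56 to 0.91). In anterior hippocampus, PBS mouse 76 was at 4.16 (others 0.31 to 0.79) and aDR mouse 64 at 3.92 (others 0.22 to 0.75). In thalamus, PBS mouse 72 was at 4.64 (others 0.86 to 1.24), and in pons AL mouse 68 was at 1.39 (others 0.75 to 0.80). The first 5 libraries held between 482 and 3176 CPM of Ttr, while the pons library held 0.604 CPM.

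The plasma difference of 2 genes was called as unequal between the 15 brain regions in the edgeR F test of region by treatment. The adjusted p was 0.0477 for Ttr and 0.0373 for Aqp1. Both genes were chosen with the corpus callosum difference known, and this fit took libraries of the same mouse as independent. With the mouse as a replicate block the adjusted p of Ttr was 0.0610 and that of Aqp1 0.0315, and without the corpus callosum libraries they were 0.272 and 0.459.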

How the results depend on the processing

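Counts of calls depended on the tool and the scaling, and 0 of the 9 genes were called for diet in any setting run. With DESeq2, 10 genes were called for diet in plexus, 9 in corpus callosum, 12 in SVZ, 224 in liver and 493 in the other 12 regions, and for plasma 4 in plexus, 275 in corpus callosum (9 of the 9), 496 in SVZ (with 9 of the 9) and 156 in the others. Without the filter on low counts, 320 genes were called for plasma in corpus callosum (9 of the 9), 41 in SVZ (6 of the 9) and 61 in the others (Ttr in olfactory bulb among them), and for diet 178 in the others and 120 over the mouse values. With DESeq2's size factors in edgeR, diet gave 0 in plexus and 0 in corpus callosum and plasma 26 in corpus callosum (7 of the 9) and 17 in SVZ (2 of the 9); with plain totals, diet gave 1 in corpus callosum and plasma 26 in SVZ (3 of the 9). With libraries as units and the mouse as a replicate block, limma called 1343 genes for diet, where F5 (0.21) and Tmem72 (0.29) turned positive, and 231 for plasma, with 8 of the 9. The F test by region gave 187 genes without choroid plexus, with Aqp1 and Clic6 (adjusted p 0.0368) called and Ttr not (0.0774), 10 (and 0 of the 9) without corpus callosum, and 0 of the 9 without both. With the plexus genes as a covariate, an alternative chosen after seeing the data, signs turned for Aqp1 (-0.16) and Tmem72 (-0.34) in the SVZ diet fit, Ttr (0.021), Folr1 (0.19) and Otx2 (0.098) in the plexus plasma fit, and Folr1 (0.34), Otx2 (1.26) and Clic6 (0.69) in the SVZ plasma fit, where the covariate did not overlap between the groups. The cause was not tested.

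Leaving out 1 mouse at a time, calls ran from 0 to 0 for diet in plexus and in corpus callosum, 0 to 2 in SVZ, 7 to 55 in liver and 33 to 273 over the mouse values. For plasma they ran from 0 to 664 in corpus callosum (0 to 9 of the 9), 0 to 234 in SVZ (0 to 8), 0 to 1 over the mouse values and 3 to 155 in the F test by region (0 to 5). The log2 changes for diet in plexus ran from -0.22 to 0.80 for Ttr, -0.25 to 1.003 for Cldn2, -0.012 to 1.04 for Slc4a5, -0.082 to 0.83 for F5, -0.13 to 1.12 for Tmem72, -0.24 to 0.80 for Folr1, -0.27 to 0.72 for Otx2 and -0.20 to 0.84 for Clic6. For diet in corpus callosum they ran from -0.24 to 3.19 for Ttr, -0.10 to 2.77 for Aqp1, -0.38 to 2.22 for Cldn2, -0.24 to 2.77 for Slc4a5, -0.59 to 1.81 for F5, -0.36 to 2.57 for Tmem72, -0.069 to 2.56 for Folr1, -0.30 to 2.41 for Otx2 and -0.36 to 1.92 for Clic6. For diet over the mouse values they ran from -0.20 to 0.50 for Ttr, -0.12 to 0.28 for Aqp1, -0.21 to 0.31 for Cldn2, -0.051 to 0.36 for Slc4a5, -0.27 to 0.15 for Tmem72, -0.094 to 0.41 for Folr1, -0.31 to 0.066 for Otx2 and -0.054 to 0.19 for Clic6. For plasma in plexus they ran from -1.46 to 0.28 for Ttr, -1.23 to 0.033 for Cldn2, -1.31 to 0.39 for Folr1 and -1.03 to 0.20 for Otx2. In corpus callosum and SVZ all 9 genes stayed lower with plasma in each of these fits. The depth limits the YMP values there, which rest on 0 to 37 counts of Ttr a library.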

Other observations

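F5 and Tmem72, which had nearly the same plexus level in CPM, were compared as a ratio of counts in each library of plexus, SVZ and corpus callosum with at least 30 counts of both. In PBS mouse 84 that ratio of F5 to Tmem72 was 1.28 to 1.65 over its 3 libraries, while in the other mice with 3 such libraries it ran from 0.656 (aDR mouse 62) to 1.39 (also aDR mouse 62). These values were chosen after they were seen and were not tested.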
